A study of Mus musculus with 24 samples.

Results

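A set of 10 genes that act between antigen receptor, the small GTPases Rac and Cdc42, and actin was followed in B cells of mice with deletions aimed at the genes of the transcription factors PU.1 (Spi1), SpiB (Spib) or both. The genes were Dock2, Dock8, Dock10, Dock11, Rac2, Coro1a, Was, Wipf1, Vav1 and Vav2. They were found by symbol in the deposited count tables, and all 10 were among the 27179 genes listed and passed the filter on low counts at each stage. The RNA came from lymph node B cells of C57BL/6 mice of 4 genotypes, at 3 stages, with 2 biological replicates in each group (24 libraries). Control mice were Cd23T/+, and so carried the Cd23-Cre transgene, whose recombinase is made from the transitional B cell stage onward. PU.1 cKO mice were Spi1fl/fl Cd23T/+, SpiB KO mice were Spi1fl/fl Cd23+/+ Spib-/- and had no Cre, and PU.1 SpiB DKO mice were Spi1fl/fl Cd23T/+ Spib-/-. The Spib deletion was present in all cells of the animal, while Spi1 could be lost only in cells that had made Cre. The study's account of the floxed exon has it largely kept in naive PU.1 SpiB DKO cells, so that group is not a full loss of both factors. The same account has the exon fully removed after culture with CD40L + IL-4, and deletion about as efficient with LPS + IL-4. Before RNA extraction the cells were sorted as B220+ and negative for CD3, a T cell protein, and CD138, a plasma cell protein. The names PU.1 cKO (cKO) and PU.1 SpiB DKO (DKO) are shortened below. The stages were naive cells, cells activated for 48 h with CD40L + IL-4, and cells activated for 48 h with LPS + IL-4.

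Actin in lymphocytes is rebuilt under the control of small GTPases such as Rac and Cdc42, which are switched on by guanine nucleotide exchange factors (GEFs). DOCK proteins are GEFs of 1 structural class: Dock2 activates Rac and is needed for lymphocyte migration, and Dock8 activates Cdc42 and is needed for durable antibody responses. Dock10 and Dock11 belong to the subfamily of DOCK proteins that acts on Cdc42. Vav1 and Vav2 are GEFs of the other class and are phosphorylated when the B cell receptor is engaged. Rac2 is the Rac of blood cells. Was encodes WASP, which passes the signal of Cdc42 to the Arp2/3 complex that starts new filaments, Wipf1 encodes WIP, the partner that protects WASP from degradation, and Coro1a encodes coronin 1A, a protein bound to filamentous actin.

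Library totals ran from 14231188 to 18194629 counts in naive cells, from 9598674 to 61640683 after CD40L + IL-4 and from 22757630 to 73658850 after LPS + IL-4. The highest total after CD40L + IL-4 was that of replicate 2 of cKO alone, and the next highest of that stage was 11434235. All 10 B cell markers examined were above 0.5 CPM in every group. Spib was at 9.05 to 100 CPM in the libraries of the SpiB KO and DKO groups and at 178 CPM or more in all others. Spi1 was lower than control in cKO at each stage. In DKO it was lower in naive cells (log2 fold change -0.63, adjusted p = 0.00371) and after CD40L + IL-4 (-1.73, adjusted p = 0.000368). After LPS + IL-4 it was at 63.9 and 58.8 CPM in the libraries labelled PU.1 SpiB DKO and at 72.0 and 60.7 CPM in control (-0.11, adjusted p = 0.448). A count over all exons does not measure the loss of the single floxed exon, so it is a limited check of the label. CPM here are counts scaled to a common library size, with TMM factors set within a stage, adjusted p-values are from edgeR over all genes tested, and DE means that a gene passed 3 thresholds: adjusted p under 0.15, fold over 1.5 in either direction, and average log2 RPKM (as deposited) above 0.

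The promoters of Vav1, Vav2, Dock2 and Was are shown because these windows hold the purine-rich letters GAGGAA, the core to which PU.1 and SpiB, as members of the ETS family, are known to bind. The windows run from 250 bases before to 50 after the annotated start (RefSeq, GRCm38.p6), 5′ to 3′ on the strand of the gene, and capitals mark GAGGAA or, for a match on the opposite strand, TTCCTC. They lie at chr17:57278850-57279149 (plus strand) for Vav1, chr2:27427559-27427858 (minus) for Vav2, chr11:34783856-34784155 (minus) for Dock2 and chrX:8090442-8090741 (minus) for Was.
Vav1: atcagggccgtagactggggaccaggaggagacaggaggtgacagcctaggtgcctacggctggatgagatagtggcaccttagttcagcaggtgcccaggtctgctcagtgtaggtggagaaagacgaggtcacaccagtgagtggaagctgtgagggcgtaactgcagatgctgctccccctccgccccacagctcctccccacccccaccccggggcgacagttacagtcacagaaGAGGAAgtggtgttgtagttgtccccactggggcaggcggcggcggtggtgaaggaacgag
Vav2: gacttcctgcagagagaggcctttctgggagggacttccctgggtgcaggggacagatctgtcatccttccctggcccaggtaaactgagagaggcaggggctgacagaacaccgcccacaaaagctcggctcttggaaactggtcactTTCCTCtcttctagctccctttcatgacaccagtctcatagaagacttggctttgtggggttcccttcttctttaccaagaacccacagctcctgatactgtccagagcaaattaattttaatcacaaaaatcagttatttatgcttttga
Dock2: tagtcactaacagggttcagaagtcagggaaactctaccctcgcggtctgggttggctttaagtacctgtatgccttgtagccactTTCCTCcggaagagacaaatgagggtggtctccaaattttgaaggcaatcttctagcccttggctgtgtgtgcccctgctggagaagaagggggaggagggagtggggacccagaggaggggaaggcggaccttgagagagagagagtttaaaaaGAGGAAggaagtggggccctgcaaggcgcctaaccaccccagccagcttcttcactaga
Was: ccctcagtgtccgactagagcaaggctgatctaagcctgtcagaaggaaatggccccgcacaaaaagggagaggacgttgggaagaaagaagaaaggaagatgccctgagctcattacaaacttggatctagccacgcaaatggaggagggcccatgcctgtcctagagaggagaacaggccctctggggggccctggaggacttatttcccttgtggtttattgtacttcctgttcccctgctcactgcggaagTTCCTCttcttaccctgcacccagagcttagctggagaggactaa

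The Vav1 window held 1 match, on the same strand, which began 11 bases upstream of the start and extended to GAGGAAGT. The Vav2 window held 1 match on the opposite strand, 101 bases upstream. The Dock2 window held 2, at 164 bases upstream on the opposite strand and at 9 bases upstream on the same strand, and the Was window held 1 on the opposite strand, 5 bases downstream. Windows were listed for 9 of the 10 genes, 13 in all, and 5 of the 13 held GAGGAA on either strand, the fifth being the third window of Wipf1. Of all 32851 windows of the same length in the table, 28.3% held GAGGAA and 3.20% held GAGGAAGT, of which every match is also a match of the shorter motif. No match was found in the listed windows of Dock8, Dock10, Dock11 or Coro1a, which says only that these letters are not in these windows.

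In naive control cells the genes differed widely in level. On the scale of deposited log2 RPKM, which takes account of length, Coro1a was at 11.11 and 11.11 in the 2 libraries and Rac2 at 8.97 and 9.05. Was (6.62 and 6.80) and Wipf1 (6.54 and 6.72) followed and overlapped each other. Dock2 was at 5.59 and 6.12 and Vav1 at 5.45 and 5.80, also with overlap. The 4 other exchange factors were lowest: Dock8 (4.73 and 5.24) overlapped Dock11 (4.81 and 5.01), and Vav2 (4.48 and 4.61) overlapped Dock10 (3.93 and 4.52), while the libraries of Dock11 and Vav2 did not overlap. Rac2 and the 3 actin regulators were thus above all 6 GEFs in both libraries. In GRCm38 the DOCK genes lie at chr11:34226815-34783905 (Dock2), chr19:24999321-25202432 (Dock8), chr1:80501068-80758765 (Dock10) and chrX:35887271-36076570 (Dock11), and the VAV genes at chr17:57279100-57329236 (Vav1) and chr2:27262104-27427608 (Vav2). Rac2 lies at chr15:78559169-78572783, Coro1a at chr7:126699774-126704816, Was at chrX:8081466-8090491 and Wipf1 at chr2:73429610-73529487. The counts cover the exons of each gene.

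Levels in control cells differed between the stages in both directions. Each library belongs to 1 stage, and the CD40L + IL-4 counts were deposited apart from the rest. Stage and experiment therefore cannot be told apart. Levels between stages are CPM on a TMM scale set over all 24 libraries, and in bulk RNA fewer cells of a type and less RNA per cell cannot be told apart. Dock10 was at 113 and 171 CPM in naive cells, at 925 and 614 CPM after CD40L + IL-4, and at 752 and 551 CPM after LPS + IL-4. It rose by 2.44 ± 0.25 (log2, SE) in the former culture (adjusted p = 1.4e-07) and by 2.20 ± 0.25 in the latter (adjusted p = 2.1e-07), without overlap. Coro1a went the other way, from 4583 and 3873 CPM in naive cells to 2180 and 2335 CPM and to 1596 and 1599 CPM, a log2 change of -0.91 ± 0.12 (adjusted p = 4.61e-06) after CD40L + IL-4 and -1.40 ± 0.12 (adjusted p = 6.76e-09) after LPS + IL-4.

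Rac2 and Wipf1 were both lower after LPS + IL-4 than at either other stage. Rac2 was at 1830 and 1735 CPM in naive cells, 1179 and 1446 CPM after CD40L + IL-4 and 845 and 794 CPM after LPS + IL-4, and its difference between the last and the naive stage was -1.12 ± 0.13 (adjusted p = 3.95e-07). Wipf1 was at 442 and 464 CPM, 474 and 385 CPM, and 199 and 205 CPM at the same stages, with a difference from naive of -0.08 ± 0.13 (adjusted p = 0.636) in the former culture and -1.16 ± 0.13 (adjusted p = 1.3e-07) in the latter. The difference between the 2 cultures was DE for both genes (-0.68 ± 0.13 with an adjusted p of 0.000346 for Rac2, and -1.09 ± 0.13 with an adjusted p of 1.64e-06 for Wipf1). Vav2 was the other gene that was DE higher after CD40L + IL-4, from 77.1 and 85.0 CPM to 146 and 97.2 CPM (0.59 ± 0.19, adjusted p = 0.0121), and Vav1 passed the adjusted p without reaching the fold (0.25 ± 0.11, adjusted p = 0.0683).

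In counts, 1 gene of the 10 was DE lower and 2 were DE higher after CD40L + IL-4 against naive, where 17.4% and 17.7% of the 13684 genes tested were. After LPS + IL-4 against naive 3 were lower and 1 higher, against 22.3% and 25.3% of all genes. Between LPS + IL-4 and CD40L + IL-4 2 were lower and 0 higher, against 14.3% and 16.9%. Dock2 and Dock11 passed the adjusted p in none of these 3 comparisons, with differences from -0.28 to 0.17.

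**Figure D1:**
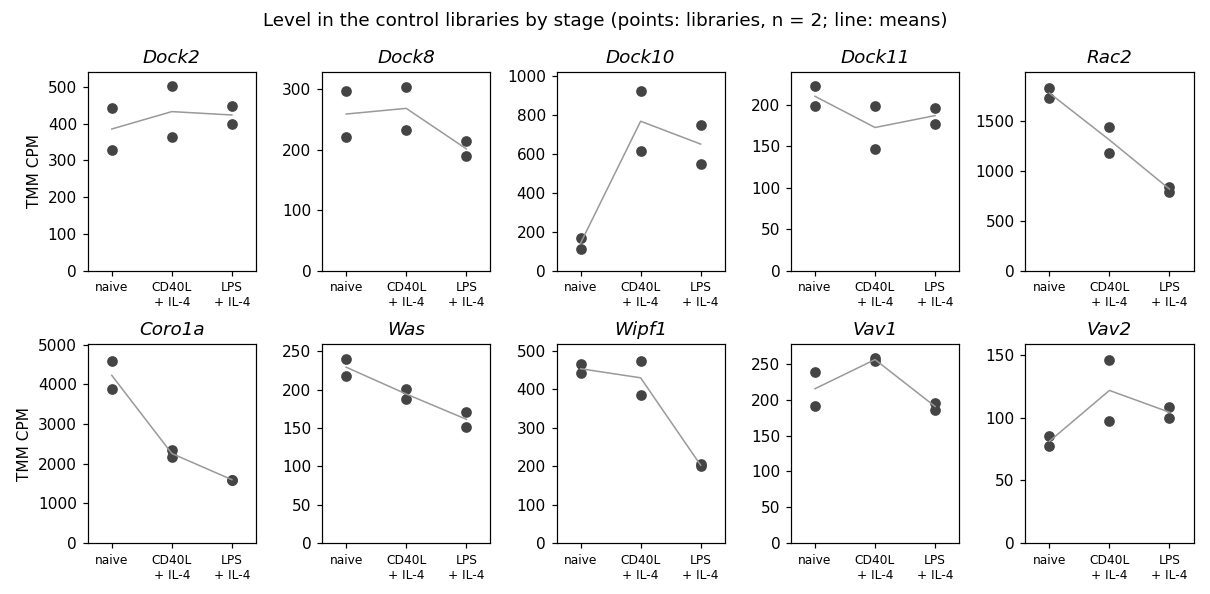
TMM-scaled CPM (linear axis from 0) of each gene in the control libraries of the 3 stages, with 1 point per library (n = 2) and a line through the means. Dock10 rises from 113 and 171 CPM to 551 CPM or more in both cultures, and Coro1a, Rac2 and Wipf1 are lowest after LPS + IL-4.

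The median change of the 10 genes in DKO was farthest from 0 after CD40L + IL-4. The comparisons of 3 genotypes with control share the same 2 control libraries within each stage. SpiB KO differs from control in Cre and in the floxed Spi1 alleles as well as in Spib. The parts of these cannot be told apart in that comparison or in the interactions, at any stage. In DKO all 10 genes had both libraries below both control libraries, an arrangement seen for 27.5% of the 12721 genes tested. Of the 10, 9 passed the adjusted p in the lower direction (12.7% of all genes) and 5, Vav2, Dock11, Dock8, Dock10 and Dock2, were DE lower (7.82% of all genes, with 5.84% DE higher). The median log2 fold change of the 10 was -0.64, and that of all genes tested was 0.00. The 10 genes were chosen with earlier results of these data known. Counts set against shares of all genes, at every stage, are therefore a description and no test of the set.

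Among the VAV exchange factors, Vav2 was at 151 and 99.3 CPM in control, 76.4 and 70.5 CPM in cKO, 98.8 and 91.0 CPM for SpiB KO and 40.2 and 57.0 CPM in DKO. The DKO libraries were the lowest of the stage and the control libraries the highest, although the 2 control libraries lay far apart. The change in DKO was -1.37 ± 0.22 (adjusted p = 0.00247), and that in cKO was -0.77 ± 0.22 (adjusted p = 0.0520), also DE. Vav1, the main VAV of lymphocytes, was at 268 and 260 CPM in control and at 184 and 168 CPM in DKO. Its change of -0.58 ± 0.15 (adjusted p = 0.0256) passed the adjusted p and lay just under the fold threshold.

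Of the DOCK genes, Dock11 had the largest change. It was at 206 and 150 CPM in control, 167 and 119 CPM in cKO, 174 and 176 CPM for SpiB KO and 95.0 and 83.5 CPM in DKO, a difference of -0.99 ± 0.21 (adjusted p = 0.00942). Both single mutants overlapped control, and DKO overlapped no other group. Dock8 was at 315 and 237 CPM in control and 164 and 168 CPM in DKO (-0.73 ± 0.19, adjusted p = 0.0305), with cKO at 214 and 160 CPM (-0.57 ± 0.19, adjusted p = 0.105). Dock10, the gene with the largest rise over naive in control cells, was at 958 and 628 CPM in control and 524 and 434 CPM in DKO (-0.73 ± 0.24, adjusted p = 0.0731). Dock2 was at 519 and 372 CPM in control and 297 and 258 CPM in DKO (-0.69 ± 0.22, adjusted p = 0.0604). In all 4 DOCK genes control replicate 1 lay above control replicate 2, which was the nearer of the pair to DKO.

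The GTPase and the actin regulators moved less. Wipf1 was at 491 and 394 CPM in control and 313 and 301 CPM in DKO (-0.53 ± 0.16, adjusted p = 0.0565), and Was was at 209 and 191 CPM against 148 and 148 CPM (-0.43 ± 0.14, adjusted p = 0.0699). Rac2 was at 1221 and 1478 CPM against 997 and 1042 CPM (-0.40 ± 0.16, adjusted p = 0.134). Each of these passed the adjusted p without reaching the fold. Coro1a did not pass it (2258 and 2387 CPM against 1766 and 1933 CPM, -0.33 ± 0.15, adjusted p = 0.176).

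In the single mutants of this stage fewer genes passed. Vav2 alone was DE lower in cKO (5.45% of all genes), and 0 of the 10 were DE in SpiB KO, where 0.110% of all genes were. The changes in SpiB KO lay between -0.40 (Vav2) and 0.06 (Coro1a), and 0 of the 10 had an unadjusted p under 0.05 in edgeR or were DE by DESeq2 or voom. Neither the step from cKO to DKO (0 of 10 DE, 3.01% of all genes) nor the interaction of the 2 genotypes (0 of 10, 1.17% of all genes) reached the threshold for any of the 10. The largest step was that of Dock11 (-0.68 ± 0.20, adjusted p = 0.154). At an unadjusted p under 0.05 edgeR gave 3 steps and 1 interaction, DESeq2 called 1 step (Dock11) and 0 interactions, and voom called 0 of each. The share of all genes at that unadjusted p was not computed at any stage, so such counts are not read as results about the 10.

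Without control replicate 1, only Vav2 and Dock11 stayed DE in DKO (2 of 10), and without replicate 2 of DKO 3 did. Over the 8 fits that each left out a library, the change ranged from -1.64 to -1.03 for Vav2 and from -1.20 to -0.75 for Dock11. For Vav2 in cKO the DE call was lost without control replicate 1 or without replicate 2 of cKO (0 of 10), and without control replicate 2 or replicate 1 of cKO 2 genes were DE. In the DKO libraries the summed CPM of 8 plasma cell genes was 2943 and 3365, against 1570 and 1730 in control. The highest level in any library of the stage was 1863 CPM for Xbp1, 726 CPM for Irf4 and 452 CPM for Ell2. It was 18.4 CPM for Sdc1, 23.4 CPM for Jchain and 0.568 CPM for Tnfrsf17. The summed CPM of the 10 B cell markers was 4833 and 4322 in DKO, against 6910 and 8468 in control. The part of the shifts in these sums in the changes above was not tested.

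**Figure D2:**
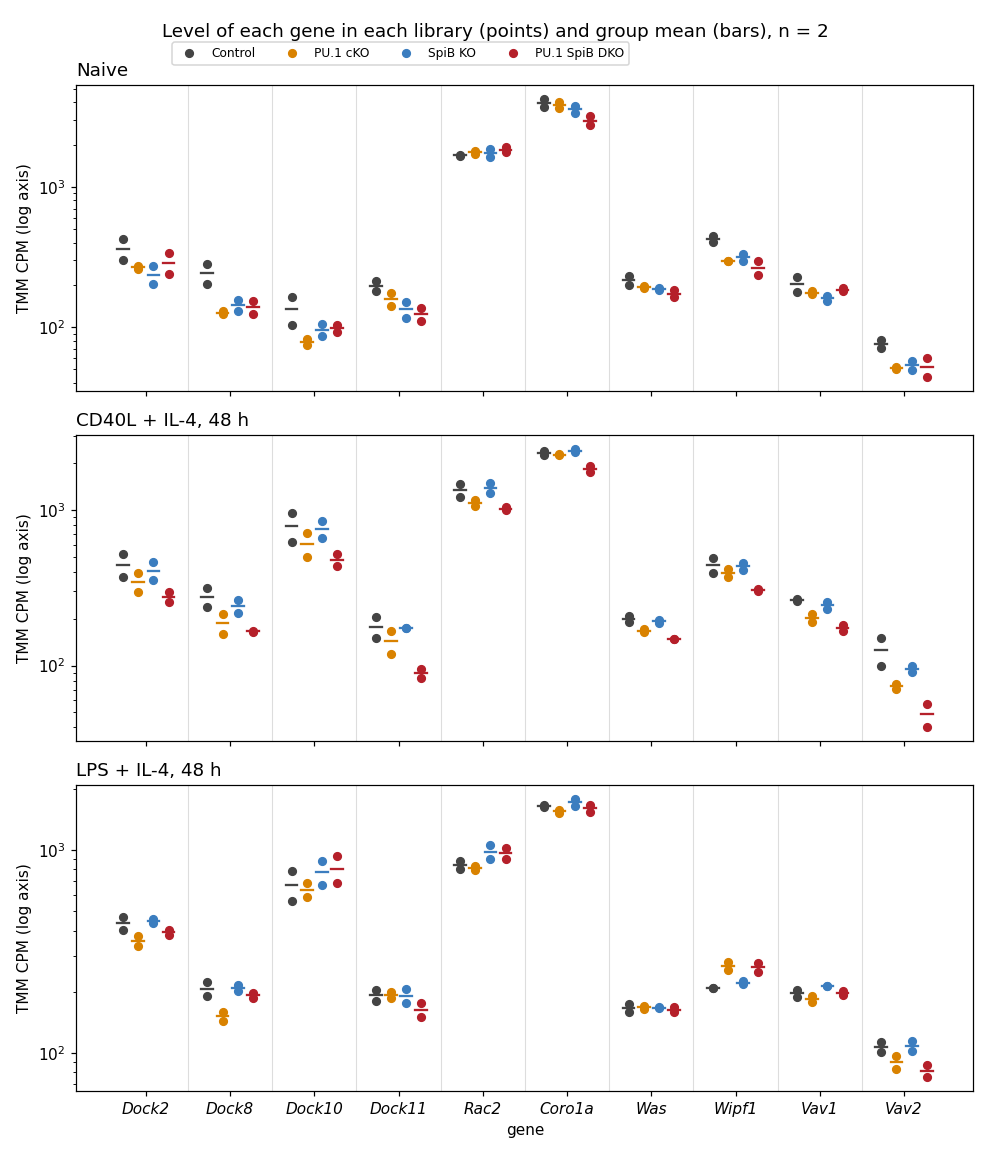
TMM-scaled CPM (log axis) of the 10 genes in naive cells (top), after CD40L + IL-4 (middle) and after LPS + IL-4 (bottom), with 1 point per library, a bar at the group mean (n = 2) and a colour per genotype. In the middle panel both DKO libraries lie below both control libraries for each of the 10 genes.

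In naive cells the decreases involved Dock8 in every mutant genotype. Dock8 was at 203 and 284 CPM in control, 124 and 129 CPM in cKO, 131 and 156 CPM for SpiB KO and 124 and 154 CPM in DKO, so that all 6 mutant libraries lay below both control libraries. Its changes were -0.94 ± 0.17 (adjusted p = 0.0119), -0.76 ± 0.17 (adjusted p = 0.0337) and -0.81 ± 0.17 (adjusted p = 0.0104) in this order, and it was DE in each. The changes in DKO and cKO differed by 0.13 ± 0.17 (adjusted p = 0.726).

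In DKO of this stage 3 of the 10 genes were DE lower, Dock8, Dock11 and Wipf1 (6.70% of the 12500 genes tested), and 0 were DE higher (7.39%). Dock11 was at 182 and 212 CPM in control and 110 and 136 CPM in DKO (-0.68 ± 0.17, adjusted p = 0.0220), and Wipf1 at 406 and 444 CPM against 235 and 296 CPM (-0.68 ± 0.13, adjusted p = 0.00614). By the adjusted p alone 7 were lower (16.6% of all genes), the others being Vav2 (-0.54 ± 0.17), Coro1a (-0.42 ± 0.13), Dock10 (-0.44 ± 0.20) and Was (-0.31 ± 0.11). In 6 of the 10 both libraries lay below both control libraries (27.2% of all genes). Rac2 was at 1683 and 1659 CPM in control and 1915 and 1756 CPM in DKO (0.14 ± 0.12, adjusted p = 0.444), and the median of the 10 was -0.43.

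In cKO Dock8 and Dock10 were DE lower (2 of 10, with 5.24% of all genes DE lower). Dock10 was at 104 and 164 CPM in control and 74.1 and 82.7 CPM in cKO (-0.77 ± 0.20, adjusted p = 0.0490). In SpiB KO Dock8 and Dock2 were (2 of 10, with 2.90% of all genes), Dock2 being at 302 and 424 CPM in control and 203 and 270 CPM in SpiB KO (-0.62 ± 0.21, adjusted p = 0.128). Wipf1 and Vav2 passed the adjusted p in both single mutants without reaching the fold, with changes from -0.57 to -0.44. Between DKO and cKO 0 of the 10 were DE (7.21% of all genes), with 1 at an unadjusted p under 0.05 and 0 by DESeq2 or voom. For the interaction edgeR gave 0 (0.936% of all genes), with 5 at an unadjusted p under 0.05, and DESeq2 gave 2 (Dock8 and Dock10) and voom 0. Shares of all genes at the unadjusted p were not computed.

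The naive calls moved with single libraries. In DKO 5 genes were DE without control replicate 1 or without replicate 2 of DKO, and 1 was without control replicate 2 (Wipf1) or without replicate 1 of DKO (Dock8). In cKO 4 were DE without control replicate 1, and 1 (Dock8) without control replicate 2 or either cKO library. In SpiB KO 5 were DE without control replicate 1, 1 without either cKO library, and 0 without control replicate 2 or replicate 1 of SpiB KO. Without control replicate 1, 4 genes (Dock2, Dock8, Dock10 and Vav1) had an interaction.

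Transcripts known as markers of other cell types also differed in level between the naive groups. The summed CPM of 9 plasmacytoid dendritic cell genes was 392 and 316 in control and 332 and 341 in cKO, and it was 1540 and 1319 in SpiB KO, and 1789 and 1831 in DKO, with all 9 above 0.5 CPM in each naive group. The summed CPM of 10 T cell genes was 13.6 to 35.7 in control and 249 to 371 in the Spib-/- groups, almost all from Cd8a and Cd4, while Cd3e stayed at or below 0.68 CPM in every naive library. Whether these transcripts came from other cells or from the B cells, and their part in the naive differences, was not tested.

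**Figure D3:**
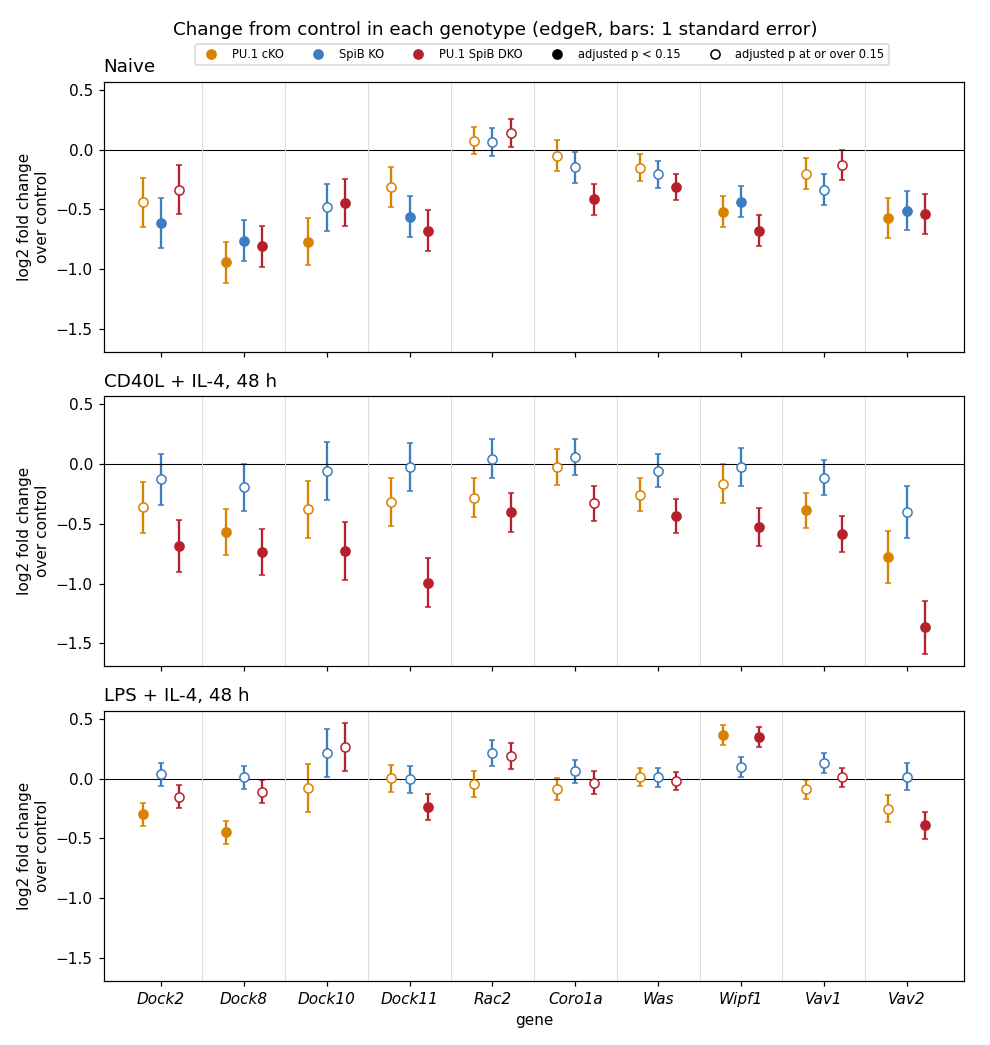
Log2 fold change over control of each gene in cKO, SpiB KO and DKO at the 3 stages (edgeR, bars are 1 SE), filled where the adjusted p is under 0.15. After CD40L + IL-4 the filled DKO points run from -0.40 (Rac2) to -1.37 (Vav2), and after LPS + IL-4 Wipf1 lies above 0 at 0.37 and 0.34 in cKO and DKO.

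After LPS + IL-4 none of the 10 genes was DE in any mutant by edgeR, DESeq2 or voom. At an unadjusted p under 0.05 edgeR gave 4 genes in cKO, 0 in SpiB KO and 2 in DKO, a name that at this stage stands for the libraries so labelled. No share of all genes was computed at this unadjusted p, and these counts are not read as results about the 10. In DKO the count of DE genes was 0 lower and 0 higher, where 4.81% and 8.76% of the 12445 genes tested were DE. It was 0 in cKO (6.67% of all genes in either direction) and 0 in SpiB KO (2.29%). With no fold threshold, 2 genes were lower and 1 was higher in DKO at an adjusted p under 0.15, against 22.4% and 25.6% of all genes. Both libraries lay below both control libraries for 2 genes and above them for 2, against 31.8% and 33.6% of all genes.

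The genes that passed the adjusted p there were Vav2, Dock11 and Wipf1. Vav2 was at 113 and 101 CPM in control, 96.2 and 83.4 CPM in cKO, 114 and 102 CPM for SpiB KO and 87.2 and 76.0 CPM in DKO (-0.39 ± 0.11, adjusted p = 0.0234). Dock11 was at 205 and 179 CPM in control and 176 and 150 CPM in DKO (-0.24 ± 0.11, adjusted p = 0.131). Wipf1 went up: it was at 208 and 208 CPM in control, 226 and 217 CPM for SpiB KO, 256 and 279 CPM in cKO and 277 and 250 CPM in DKO. All 6 mutant libraries lay above both control libraries, with changes of 0.09 ± 0.08 (adjusted p = 0.680) in SpiB KO, 0.37 ± 0.08 (adjusted p = 0.0190) in cKO and 0.34 ± 0.08 (adjusted p = 0.0113) in DKO.

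Dock8 and Dock2 were lower in cKO of this stage than in control. Dock8 was at 223 and 191 CPM in control, 159 and 144 CPM in cKO and 198 and 185 CPM in DKO, so that it fell in cKO (-0.45 ± 0.10, adjusted p = 0.0154) and was at -0.11 ± 0.10 (adjusted p = 0.424) in DKO. Dock2 fell in cKO by 0.30 on the log2 scale (adjusted p = 0.0857). Between DKO and cKO 0 of the 10 were DE (8.11% of all genes) and 0 had an interaction (1.48%), with 1 gene (Dock8) at an unadjusted p under 0.05 in each and 0 by DESeq2 or voom. The labels give replicate numbers but no pairing. The numbers were taken to pair the libraries of this stage because deviations of same-numbered libraries from their group means correlated at 0.386 to 0.514. With the number as a block Dock8 had an interaction (1 of 10). With the block 6 genes passed the adjusted p in DKO, the 3 named and Dock10 (0.27, adjusted p = 0.0124), Dock2 (-0.15, adjusted p = 0.0820) and Rac2 (0.19, adjusted p = 0.113). The share of all genes that passed with the block was not computed. Without the block 22.4% were lower and 25.6% higher, so the count of 6 is not read as a result about these genes. Vav2 passed the adjusted p with the block in cKO (-0.26, adjusted p = 0.0114), and Dock10 did in SpiB KO (0.22, adjusted p = 0.120). The plasma cell genes summed to 2308 and 2144 CPM in DKO, 1580 and 1637 CPM in cKO and 849 and 878 CPM in control. The highest level in any library of the stage was 1092 CPM for Xbp1, 499 CPM for Irf4 and 450 CPM for Ell2. It was 8.70 CPM for Sdc1, 15.2 CPM for Jchain and 0.153 CPM for Tnfrsf17. The part of the plasma cell genes in the differences of the 10 genes was not tested.

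The difference between stages in the change from control to DKO was tested in a fit of all 24 libraries. Spi1 counts over all exons were not equally low in the DKO libraries of the 3 stages, as given above. After LPS + IL-4 they were not shown to be below control, although the study reports efficient deletion of the floxed exon there. From these counts, stage, experiment and extent of Spi1 loss cannot be told apart. Between LPS + IL-4 and CD40L + IL-4, 8 of the 10 genes differed at an adjusted p under 0.15, all with the higher value after LPS + IL-4, where 13.6% of all genes differed in this direction. The 8 were Dock8, Dock10, Dock11, Rac2, Was, Wipf1, Vav1 and Vav2, and the largest differences were those of Dock10 (0.91 ± 0.34, adjusted p = 0.0751), Vav2 (0.89 ± 0.26, adjusted p = 0.0279) and Wipf1 (0.79 ± 0.18, adjusted p = 0.00751). Between CD40L + IL-4 and naive 3 genes, Vav2, Rac2 and Vav1, were lower (9.62% of all genes), and between LPS + IL-4 and naive Dock8 and Wipf1 were higher (13.5%). These comparisons share libraries with each other and with those within a stage. The count of 8 fell to 3 without control replicate 1 of CD40L + IL-4 (Rac2, Wipf1 and Vav1 stayed), to 4 without replicate 2 of DKO of that stage, replicate 1 of DKO of LPS + IL-4 or control replicate 2 of LPS + IL-4, and to 5 without replicate 2 of DKO of LPS + IL-4. The count of 3 fell to 1 without replicate 1 of DKO of CD40L + IL-4 or replicate 2 of naive DKO. The count of 2 fell to 1, Wipf1, without replicate 1 of DKO of either stage or control replicate 2 of LPS + IL-4.

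Transcript length moved with these results. The summed exon length was 9240 bp for Dock11, 10070 bp for Dock8, 11425 bp for Dock2 and 18267 bp for Dock10, against a median of 4408 bp over the genes tested, while Rac2, Coro1a, Was and Vav1 were between 2381 and 3688 bp, Wipf1 was 5896 bp and Vav2 6915 bp. Across all genes tested, the longest 10% had a median change in DKO of -0.28 after CD40L + IL-4, -0.21 in naive cells and 0.05 after LPS + IL-4. Replicates of 1 genotype differed in the same manner: between the 2 control libraries of CD40L + IL-4 the longest 10% had a median difference of -0.34 (replicate 2 minus 1), and the 10 genes had -0.36. When each library was adjusted for its trend with length, the changes after CD40L + IL-4 in DKO were -1.25 for Vav2 (adjusted p = 0.00169), -0.82 for Dock11 (adjusted p = 0.00558) and -0.62 for Vav1 (adjusted p = 0.0159), which were DE (3 of 10). Those of Dock8 (-0.53, adjusted p = 0.0320), Dock2 (-0.45, adjusted p = 0.0720) and Dock10 (-0.34, adjusted p = 0.133) fell below the fold, and with Was, Wipf1, Rac2 and Coro1a all 10 genes passed the adjusted p in the lower direction. Shares of all genes in the length-adjusted fit are not given, so these counts cannot be set against them. Without the adjustment 12.7% of all genes passed the adjusted p in the lower direction and 7.82% were DE lower.

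In naive DKO cells this adjustment left Dock8 (-0.64, adjusted p = 0.00614) and Wipf1 (-0.62, adjusted p = 0.00350) DE, while Dock11 was at -0.54 (adjusted p = 0.0169) and Dock10 at -0.12 (adjusted p = 0.544). In LPS + IL-4, with the replicate block kept, Vav2 was at -0.41 (adjusted p = 0.000246), Dock11 at -0.27 (adjusted p = 0.00315) and Wipf1 at 0.33 (adjusted p = 0.00228). The difference between LPS + IL-4 and CD40L + IL-4 in the change from control to DKO was 0.79 for Vav2 (adjusted p = 0.0230) and 0.50 for Dock10 (adjusted p = 0.0782) after adjustment, and that of Dock8 no longer passed (0.35, adjusted p = 0.161).

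**Figure D4:**
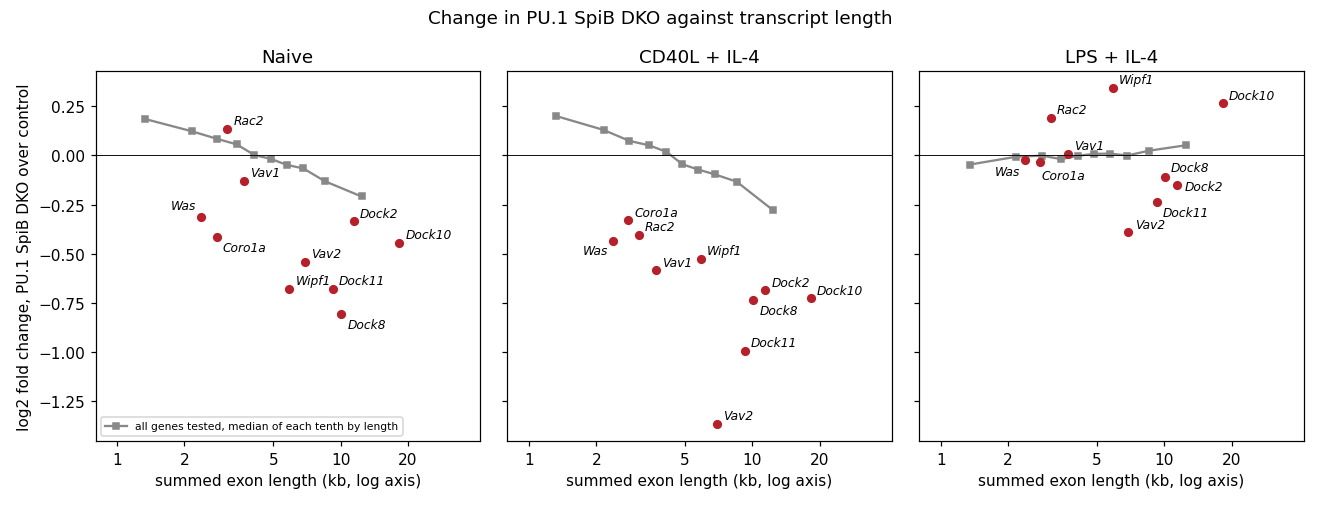
Log2 fold change in DKO over control against summed exon length (kb, log axis) for the 10 genes (red points) and, in grey, the median of all genes tested in each 10% by length, at the 3 stages. After CD40L + IL-4 the grey line falls from 0.20 in the shortest 10% to -0.28 in the longest, and all 10 genes lie below the grey medians.

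A wider list of actin regulators was also chosen with earlier results of these data known, and its counts are a description. It held 149 other genes, of which 136 were tested after CD40L + IL-4. In DKO of that stage 30 were DE lower and 4 higher, with a median change of -0.33, where 7.82% and 5.84% of all genes were. By role, 8 of 19 WASP, WAVE and formin nucleation factors, 10 of 26 actins, capping, cross-linking and linker proteins, 4 of 25 other GEFs, 2 of 13 GAPs and GDIs (the regulators that switch GTPases off or hold them) and 0 of 9 subunits of the Arp2/3 complex were lower. In naive cells 15 of 132 were lower and 6 higher (median -0.21), against 6.70% and 7.39% of all genes. After LPS + IL-4 5 of 138 were lower and 14 higher (median 0.12), shares near the 4.81% and 8.76% of all genes. These counts and medians, and the changes of single genes below, were not adjusted for transcript length. Among all genes tested, the longest 10% had medians of -0.28 after CD40L + IL-4, -0.21 in naive cells and 0.05 after LPS + IL-4.

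Genes of this list that were DE in the same direction in at least 2 stages of DKO numbered 16. The share of all genes that were so was not computed, and the count is not read as a result about the list. The 12 of them with the largest mean change are given. Arhgap17, a GAP of Cdc42 and Rac, was lower at each stage (-1.16 in naive cells, -1.82 after CD40L + IL-4 and -0.74 after LPS + IL-4), as was Swap70, which binds Rac and actin filaments in B cells (-1.04, -1.25 and -0.80). The filament-severing protein gelsolin (Gsn) was lower in the 2 cultures (-2.16 and -0.83), as was the Rac and Cdc42 GEF Arhgef6 (-1.06 and -0.70). The motor genes Myh9 (-1.65 and -1.02) and Myo1e (-1.04 and -0.87) and the GEF gene Arhgef18 (-0.92 and -0.84) were lower in naive cells and after CD40L + IL-4, and Arhgef18 was DE higher after LPS + IL-4 (0.66).

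Others of the 12 rose. Pfn2, a profilin, was higher at each stage (0.88, 1.85 and 1.15), and the atypical GTPase gene Rhoh was higher in the 2 cultures (0.63 and 1.08). Rhob was DE lower in naive cells (-1.17) and higher after CD40L + IL-4 (1.40) and LPS + IL-4 (1.03), and the adaptor gene Nck2 showed the same order of signs (-0.98, 0.83 and 1.33). Ssh3, a cofilin phosphatase, was higher in naive cells (0.86) and after LPS + IL-4 (1.32) and was at 0.04 after CD40L + IL-4 (adjusted p = 0.940).

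Vav2 had the largest mean absolute change over the 3 stages in DKO (0.77), ahead of Dock11 (0.64) and Dock8 (0.55). Over the 12 group means of log2 CPM, the genes most like it were Vps13b (r = 0.975), Dip2b (r = 0.942) and Smyd4 (r = 0.939), and Dock2 (r = 0.937) came next. These means share libraries, depth and the trend with length, and the correlations are a description only.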

How the data were processed

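RNA-seq was measured in 24 libraries, 4 genotypes at 3 stages with 2 biological replicates each, and p-values measure the spread between these libraries. The authors aligned reads to GRCm38/mm10 with Subread, kept uniquely mapped reads and summed them over RefSeq exons with featureCounts, and they deposited raw counts per gene. They also deposited log2 RPKM, normalized for library size and gene length, which were used here for levels between genes and for the threshold on expression. Whether counting used strand is not given in the sources used here. Entries without a symbol (517, 0.162% of counts) were kept in library sizes and, where they passed the filter on low counts, in the tests.

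Genes that reached 0.5 CPM in 2 or more libraries entered the quasi-likelihood test of edgeR 4.0.16 in R 4.3.3, with TMM factors and Benjamini-Hochberg adjustment over all of them. Each fit took the 8 libraries of a stage, or all 24 between stages. DE meant an adjusted p under 0.15, a fold over 1.5 and a mean log2 RPKM above 0, as in the study's methods. Interactions and differences of effects were called at the adjusted p alone. Voom with quantile normalization (limma 3.58.1) and DESeq2 1.42.0 were alternatives. The scripts were tested on simulated data. With 2 libraries a group, an exact permutation test cannot go below p = 0.333, so none was run.

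Sequences came from RefSeq. The 10 genes and all lists were chosen with earlier results of these data known. Named were the 10 genes, Spi1 and Spib, paralogs of the 10, up to 12 genes of the wider list DE in the same direction in at least 2 stages, and the 3 genes whose group means correlated best with those of the gene of largest mean change. Marker lists for other cell types were summed as CPM. Replicates correlated at r = 0.978 to 0.991 across genes. Deviations of same-numbered libraries from their group means correlated at 0.386 to 0.514 after LPS + IL-4, where every pair passed 0.1 and the numbers were taken to pair the libraries, at 0.0918 to 0.250 in naive cells and at -0.0702 to 0.266 after CD40L + IL-4. Length adjustment was chosen after seeing the data.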

Additional observations from a re-analysis of the deposited data

Results flagged for a closer look

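The effect of DKO over control differed between stages, by the test of the difference itself in edgeR over all 24 libraries, in 13 of the comparisons of a gene between stages. Between CD40L + IL-4 and naive cells 3 of 10 differed, against 16.8% of all genes in either direction. Between LPS + IL-4 and naive cells 2 of 10 did (29.6%), and between LPS + IL-4 and CD40L + IL-4 8 of 10 did (28.6%). The count between LPS + IL-4 and naive cells is not above that share and is not read as a result about the 10. Between CD40L + IL-4 and naive cells the effect was lower for Vav2 (-0.81, adjusted p = 0.0636), Rac2 (-0.52, adjusted p = 0.0932) and Vav1 (-0.44, adjusted p = 0.0952). Between LPS + IL-4 and naive cells it was higher for Wipf1 (0.96, adjusted p = 0.00121) and Dock8 (0.63, adjusted p = 0.0784).

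Between LPS + IL-4 and CD40L + IL-4 it was higher for the exchange factors Dock10 (0.91, adjusted p = 0.0751), Vav2 (0.89, adjusted p = 0.0279), Dock11 (0.67, adjusted p = 0.0806), Dock8 (0.54, adjusted p = 0.132) and Vav1 (0.51, adjusted p = 0.0351). Wipf1 (0.79, adjusted p = 0.00751), Rac2 (0.52, adjusted p = 0.0688) and Was (0.33, adjusted p = 0.132) differed in the same direction. Spi1 itself differed between these cultures (1.54, adjusted p = 0.000325), and its part in the differences above was not tested.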

How the results depend on the processing

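Of 2280 alternative values of the 150 gene effects, 103 (of 41 effects) had the other sign, in 0 of which the effect passed the adjusted p before or after, and 146 of 185 alternative counts that kept all libraries stayed within 1.5 times. DESeq2 gave 2 naive interactions and 1 gene DE between DKO and cKO (the step) after CD40L + IL-4. Voom gave 1 gene in naive SpiB KO, 1 in naive DKO, 2 in CD40L + IL-4 cKO, and 1 (CD40L + IL-4 against naive) and 4 (LPS + IL-4 against CD40L + IL-4) in control. Without a filter on low counts there were 3 naive interactions and 2 steps after CD40L + IL-4, and with all 24 libraries in the fit 1 and 2. At an adjusted p under 0.05 the counts were 1 in naive SpiB KO, 0 and 3 in cKO and DKO of CD40L + IL-4, and 0, 1 and 3 for the difference in effect (CD40L + IL-4 against naive, LPS + IL-4 against naive, LPS + IL-4 against CD40L + IL-4). With no fold threshold they were 4, 5, 7 and 1 in naive cells (cKO, SpiB KO, DKO, step), 3 and 9 after CD40L + IL-4 (cKO, DKO), 3, 3 and 2 after LPS + IL-4 (cKO, DKO, step) and 6, 7 and 6 in control. Length adjustment gave 1 gene in naive cKO, 1 in naive SpiB KO, 1 naive interaction, 3 in CD40L + IL-4 DKO and 4 differences between LPS + IL-4 and naive. Shares of all genes are not given for these alternatives, and the cause of these moves was not tested.

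The replicate block gave 5 naive interactions, 1 step after CD40L + IL-4, 1 interaction after LPS + IL-4 (2 with length adjustment) and 5 differences between LPS + IL-4 and naive. Outside LPS + IL-4 the numbers were not taken to pair the libraries. Same-numbered deviations correlated at 0.0918 to 0.250 in naive cells and at -0.0702 to 0.266 after CD40L + IL-4, so some shared variation is not excluded. The block also took the genes of LPS + IL-4 DKO past the adjusted p from 3 to 6, for which no share of all genes was computed. It moved no other count of DE genes, interactions or differences in effect by over 1.5 times.

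Leaving out 1 library at a time gave, in naive cells, 1 to 4 genes in cKO, 0 to 5 in SpiB KO, 1 to 5 in DKO and 0 to 4 interactions. After CD40L + IL-4 it gave 0 to 2 in cKO, 2 to 7 in DKO and 0 to 1 steps, with Dock11 the step gained without either control library, replicate 2 of cKO or replicate 2 of SpiB KO. After LPS + IL-4 every count stayed at 0. The differences in effect numbered 1 to 2 (CD40L + IL-4 against naive), 1 to 3 (LPS + IL-4 against naive) and 3 to 8 (LPS + IL-4 against CD40L + IL-4). A group left with 1 library was assumed to vary like the others. With 2 libraries a group, small changes were not detectable.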

Other observations

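Close relatives of the 10 genes also differed between the stages in control cells. Vav3 fell after LPS + IL-4 against naive (log2 change -1.18) and against CD40L + IL-4 (-1.35), and was higher in DKO than in control after LPS + IL-4 (0.75, adjusted p = 0.00699). Coro1b, a coronin found in most cells, fell after LPS + IL-4 (-1.18) and in DKO after CD40L + IL-4 (-0.61, adjusted p = 0.0275). Dock9, of the Cdc42 subfamily, rose in both cultures (1.01 after CD40L + IL-4 and 1.64 after LPS + IL-4), and Wasl, the relative of Was found in most cells, fell in both (-1.03 and -1.07).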
